A study of Homo sapiens with 12 samples.

Results

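10 genes of the NF-κB pathway were followed in prostate cancer cells in which the glycosylation enzyme GALNT7 was lowered or raised. They are the subunit genes NFKB1, NFKB2, RELA and RELB, and the IκB family genes NFKBIA and NFKBIZ. The remaining ones are the feedback and survival genes TNFAIP3, BIRC3 and TRAF1, and the TNF-induced gene TNFAIP2. The genes were chosen by name, with earlier results of these data known, and all 10 were found among the 59424 genes of both deposited tables. RNA sequencing covered 4 groups of 3 biological replicates, 12 libraries in all. In CWR22Rv1 cells, a lentiviral control shRNA (shControl) was compared with a lentiviral shRNA against GALNT7 (GALNT7 KD). In DU145 cells, a lentiviral negative control open reading frame (OE control) was compared with lentiviral GALNT7 (GALNT7 OE). The lines are stable transduced cultures, and the labels name no added cytokine. The sources do not say whether the replicates came from separate transductions. The p-values therefore set each group difference against the spread between these cultures, which need not include that between transductions.

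GALNT7 itself moved in the labelled direction. The normalised count of GALNT7 fell from 999 ± 122 to 461 ± 53.7 (SD, n=3) in the knockdown (limma adjusted p=0.00512) and rose from 964 ± 75.8 to 2181 ± 176 (SD, n=3) in the overexpression (limma adjusted p=7.99e-05). Recovered depth was 18364512 to 24356910 reads per library. KLK3, which encodes prostate specific antigen, had a mean of 392.1 in shControl cells and was at 0 in all DU145 libraries. Of 4 markers of prostate epithelium, KRT8 had means from 10242 to 12979 in the 4 groups. KRT18 and EPCAM were lower in the knockdown (limma adjusted p=0.0238 and 0.0127), and in the overexpression EPCAM was higher and CDH1 lower (0.00156 and 0.00917). KRT18 and KRT8 lie on chromosome 12 and had log2 fold changes of -0.35 and -0.07 in the knockdown. The median over 922 genes of that chromosome was -0.28 there, and its part in the KRT18 value was not tested. Both tables were scaled separately, so levels and tests are given within a cell line only.

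NF-κB proteins are dimers of REL-family subunits that inhibitor proteins of the IκB family keep out of the nucleus. In the canonical pathway, receptors for TNF, interleukin 1 and microbial products activate IκB kinases, the inhibitor NFKBIA is degraded, and dimers that contain RELA enter the nucleus. In the alternative pathway, the kinase MAP3K14 drives the processing of the NFKB2 precursor, which partners RELB. Many of the genes switched on are themselves regulators: NFKBIA resynthesis and the ubiquitin-editing enzyme TNFAIP3 shut the signal down, while BIRC3 and TRAF1 act at the receptor complexes. In epithelial cancers, the prostate included, the pathway is known for inflammatory and survival gene expression.

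The promoters of the genes are shown because several carry sequences that NF-κB is known to bind. RefSeq promoters (GRCh38.p14, 250 bases before to 50 after each start) were matched for 9 of the 10 genes, RELB being the exception, and gave 16 promoters. The NF-κB consensus, searched on both strands, was found in 8 of the 16 (50%), against 3956 of all 35116 promoters (11.27%). In the lists described below, the share ran from 6.25% for kinases to 71.43% (5 of 7) for other subunit and IκB genes. Of the 9 genes, NFKB1, NFKB2, NFKBIA, NFKBIZ, TNFAIP3 and BIRC3 had a match, and RELA, TNFAIP2 and TRAF1 had none in these windows. Each line below holds 30 bases, 5′ to 3′ on the gene's strand, with the match in capitals. 2 of the windows hold more than 1 match: the NFKB2 window at 102394462, where 2 matches overlap, and the TNFAIP3 window. A match is a description of the letters only.
NFKB1, chr4:102501300-102501329, plus strand: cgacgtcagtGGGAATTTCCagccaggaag
NFKB2, chr10:102394462-102394491, plus strand: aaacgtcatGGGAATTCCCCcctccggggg
NFKB2, chr10:102394490-102394519, plus strand: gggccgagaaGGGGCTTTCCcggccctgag
NFKB2, chr10:102395519-102395548, plus strand: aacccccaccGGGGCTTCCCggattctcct
NFKB2, chr10:102395674-102395703, plus strand: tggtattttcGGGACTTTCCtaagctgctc
NFKBIA, chr14:35404811-35404840, minus strand: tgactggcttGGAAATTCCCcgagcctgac
NFKBIZ, chr3:101827757-101827786, plus strand: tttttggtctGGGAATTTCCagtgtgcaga
NFKBIZ, chr3:101849265-101849294, plus strand: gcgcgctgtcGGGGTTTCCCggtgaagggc
TNFAIP3, chr6:137867188-137867217, plus strand: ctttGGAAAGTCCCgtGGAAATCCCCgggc
BIRC3, chr11:102317275-102317304, plus strand: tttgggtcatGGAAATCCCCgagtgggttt
BIRC3, chr11:102317339-102317368, plus strand: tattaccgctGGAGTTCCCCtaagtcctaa

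The nearest match to a start was in NFKB2, at -21 to -12 of one of its starts, and the NFKBIA match lay at -81 to -72. NFKB2 had matches in 2 of its 3 promoters, and NFKBIZ had matches upstream of 2 starts.

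In DU145 cells with GALNT7 OE, 9 of the 10 genes were lower and none was higher. The genes that fell most were NFKBIZ (6.01-fold), TNFAIP3 (4.67-fold) and BIRC3 (2.64-fold). The subunit gene NFKB1 was the one that did not pass the test. Of all 18705 genes tested, 20.5% were lower and 22.9% higher (limma, adjusted p under 0.05). When the libraries were rescaled to their 75th percentile, 41.65% of all calls were higher, against 52.75% as deposited, and 9 of the 10 genes were still lower. For the same 9 genes the 3 treated libraries all lay below the 3 control libraries, as did 27.1% of all genes tested, and no gene of the 10 had all treated libraries above the controls, as 28.2% of all genes did. The median log2 fold change of the 10 genes was -0.97, and that of all genes tested was -0.01. In bulk RNA, fewer cells of a kind and less RNA per cell cannot be told apart.

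**Figure D1:**
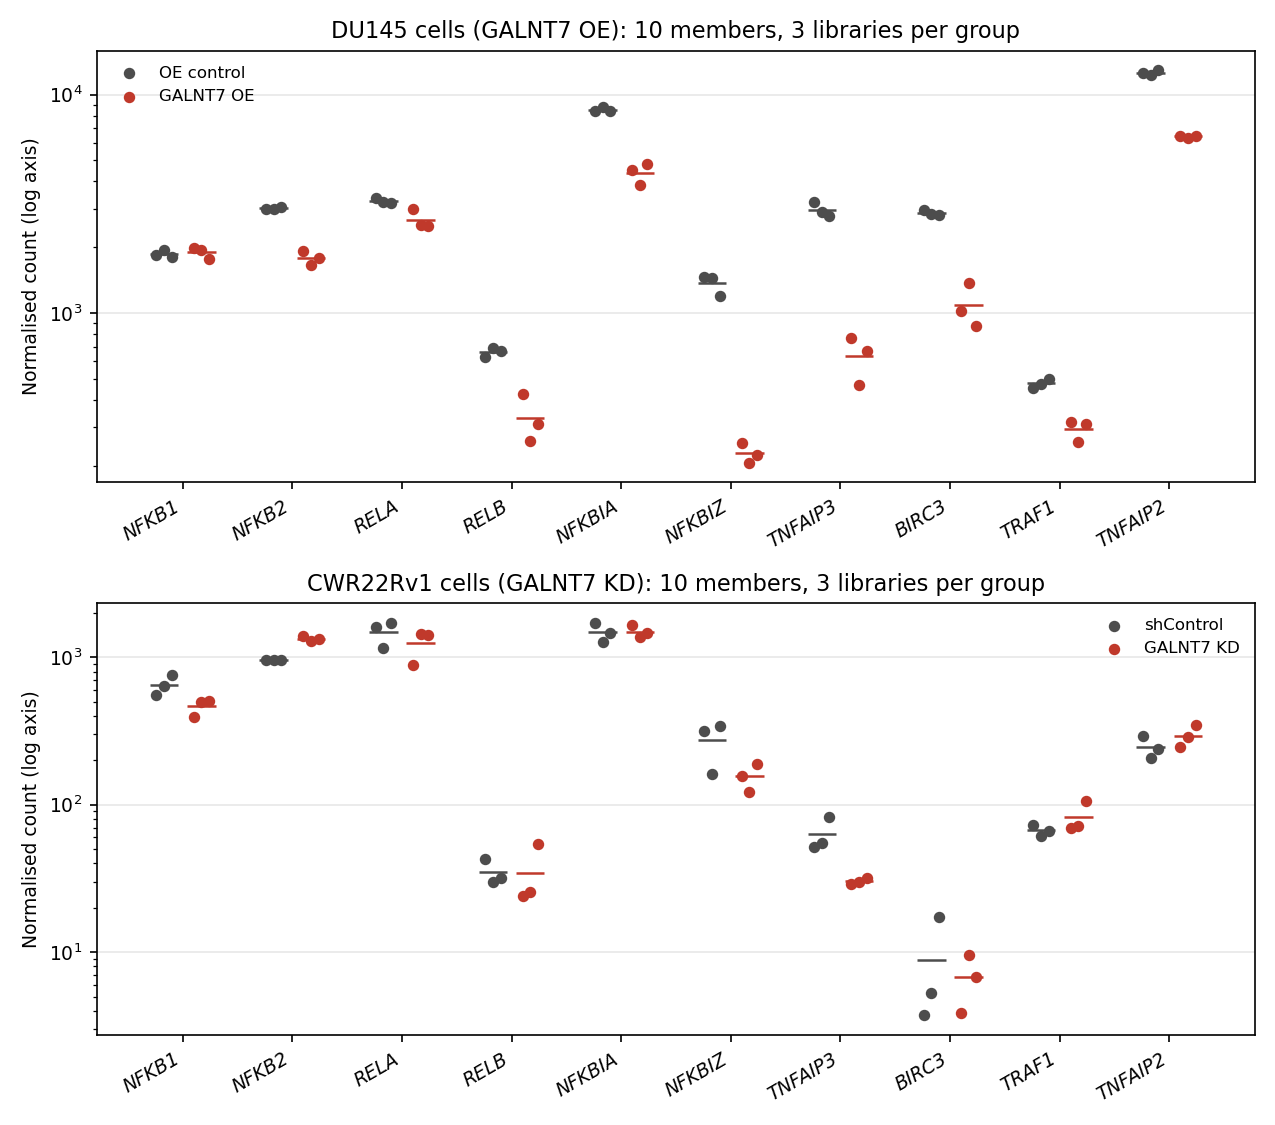
Normalised read counts (log axis) of the 10 NF-κB genes in each of the 12 libraries, with points for libraries and bars for group means; the cell lines were scaled separately. In DU145 cells the GALNT7 OE libraries of NFKBIZ lie between 206 and 255, and those of the OE control between 1199 and 1463.

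Among the subunits, NFKB1 (chr4:102501329-102617302, plus strand), whose product is processed to the shorter DNA-binding partner of RELA, had 1852, 1940 and 1799 normalised counts in the OE control and 1986, 1950 and 1770 in GALNT7 OE. The groups overlapped, and the log2 fold change was 0.03 with a 95% interval of -0.12 to 0.18 (limma adjusted p=0.753), and -0.07 after rescaling to the 75th percentile. NFKB2 (chr10:102394110-102402529, plus strand), the precursor of the alternative pathway, had 2990, 2983 and 3058 in the control and 1919, 1657 and 1778 with GALNT7 OE. Every treated library was well below the controls, a 1.69-fold fall (log2 fold change -0.76, standard error 0.064, limma adjusted p=0.000144).

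RELB (chr19:45001430-45038198, plus strand), the partner of processed NFKB2, had 629, 693 and 670 in the OE control and 426, 260 and 309 in GALNT7 OE. Its level was 2.00-fold lower (log2 fold change -1.03, standard error 0.176, limma adjusted p=0.00335), with replicate 1 the highest of the treated libraries. RELA (chr11:65653596-65663094, minus strand), the transactivating subunit of the canonical pathway, had 3366, 3222 and 3200 in the control and 3002, 2522 and 2508 with GALNT7 OE. Its fall was the smallest of the 9, at 1.22-fold (log2 fold change -0.29, standard error 0.078, limma adjusted p=0.0219). The RELA call rested on all but 1 of the libraries: without OE control replicate 1, 2 or 3 the adjusted p was 0.0712, 0.0545 and 0.0503, and without GALNT7 OE replicate 2 or 3 it was 0.0686 and 0.0654, while over all alternatives it ran from 0.00213 to 0.0712. A lincRNA on the opposite strand, AP001362.2, overlaps RELA, and its values were not used here.

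NFKBIA (chr14:35401511-35404749, minus strand), the classic inhibitor that holds RELA dimers in the cytoplasm, had 8378, 8778 and 8431 normalised counts in the OE control and 4514, 3871 and 4806 in GALNT7 OE. All treated libraries were lower, by 1.94-fold on the means (log2 fold change -0.96, standard error 0.079, limma adjusted p=0.000136). NFKBIZ (chr3:101827991-101861022, plus strand), a nuclear member of the IκB family that is needed for a set of secondary response genes, had 1463, 1451 and 1199 in the control and 255, 206 and 223 with GALNT7 OE. Of the 10 genes it fell most (log2 fold change -2.58, standard error 0.118, limma adjusted p=1.06e-05), and 1.17% of all genes tested had a lower fold change.

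TNFAIP3 (chr6:137867188-137883312, plus strand), the ubiquitin-editing enzyme that ends receptor signalling, had 3225, 2886 and 2776 normalised counts in the OE control and 767, 470 and 667 in GALNT7 OE. The groups were far apart (log2 fold change -2.25, standard error 0.174, limma adjusted p=0.000102), and 1.72% of all genes had a lower fold change. The antisense gene AL357060.1 overlaps TNFAIP3 on the opposite strand with a mean of 68.5 normalised counts in DU145 cells. The library kit keeps the strand, but whether the counting used it is not given in the sources used here.

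BIRC3 (chr11:102317450-102339403, plus strand), a ubiquitin ligase of the TNF receptor complex that protects from cell death, had 2973, 2846 and 2809 in the OE control and 1020, 1370 and 876 in GALNT7 OE. Its log2 fold change was -1.43 (standard error 0.152, limma adjusted p=0.000409). TRAF1 (chr9:120902393-120929173, minus strand), an adaptor of TNF receptors, had 455, 475 and 499 in the control and 317, 258 and 310 with GALNT7 OE, a 1.61-fold fall (limma adjusted p=0.0021). Neither gene overlapped between the groups. TNFAIP2 (chr14:103123442-103137439, plus strand), a cytoplasmic protein induced by TNF, had 12514, 12346 and 12907 in the control and 6491, 6305 and 6492 with GALNT7 OE. The treated libraries lay close together and the log2 fold change was -0.97 (standard error 0.035, limma adjusted p=4.85e-06). For each of the 9 genes the two-sided exact permutation test gave p=0.1, the smallest that 3 libraries against 3 allow.

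**Figure D2:**
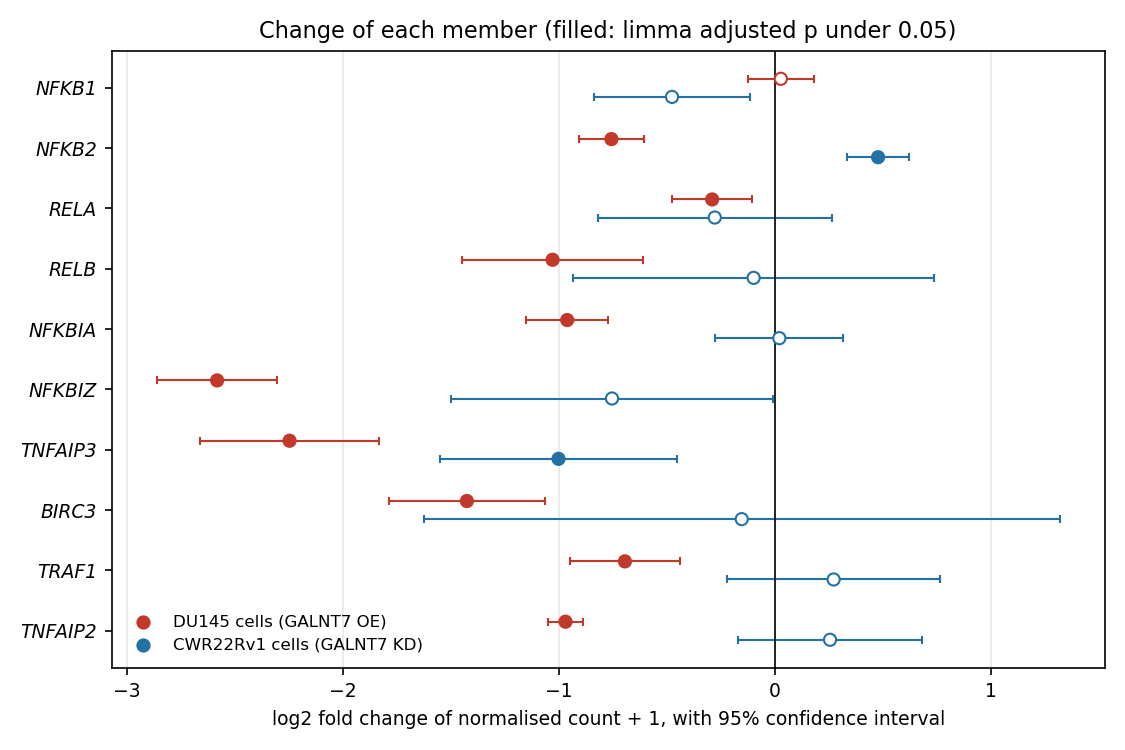
Log2 fold change of the 10 NF-κB genes, as treated minus control on log2(normalised count + 1), with 95% intervals from limma; filled points pass an adjusted p of 0.05. In DU145 cells 9 genes lie below 0, down to -2.58 for NFKBIZ, while in CWR22Rv1 cells the points lie on both sides of 0 and NFKB2 and TNFAIP3 are the filled ones.

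The order of the levels, compared per kilobase of exon, also shifted in DU145 cells. In the OE control the mean normalised count per kb ran from NFKBIA (3594) and TNFAIP2 (2503) through NFKB2 (671), RELA (597), TNFAIP3 (586), BIRC3 (383), NFKB1 (298), NFKBIZ (232) and RELB (219) to TRAF1 (73.8). RELA and TNFAIP3 overlapped in this order, as did NFKBIZ and RELB. With GALNT7 OE, NFKBIA (1853) and TNFAIP2 (1278) kept the top places, followed by RELA (490), NFKB2 (398), NFKB1 (304), BIRC3 (145), TNFAIP3 (126), RELB (109), TRAF1 (45.7) and NFKBIZ (38.6). BIRC3, TNFAIP3 and RELB overlapped with their neighbours there, as did TRAF1 and NFKBIZ. NFKBIA per RELA, both per kb, was 5.73 to 6.27 in the control libraries and 3.46 to 4.41 in the GALNT7 OE libraries. TNFAIP3 per RELA was 0.938 to 1.04 and 0.202 to 0.288. Both ratios thus lay apart between the groups, as did the ratio of NFKB2 to NFKB1, at 2.15 to 2.37 and 1.19 to 1.40.

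In CWR22Rv1 cells with GALNT7 KD, 1 of the 10 genes was higher and 1 was lower. NFKB2 rose 1.39-fold and TNFAIP3 fell 2.08-fold, while the other 8 did not pass the test. Of all 17906 genes tested, 5.28% were higher and 3.79% lower (limma, adjusted p under 0.05), and 16.9% and 15.6% had groups that did not overlap in those directions. Against that background the counts are not a result about the 10 genes as a list, whose median log2 fold change was -0.13, with -0.01 for all genes tested.

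NFKB2 had 954, 961 and 960 normalised counts in shControl cells and 1389, 1285 and 1334 in GALNT7 KD cells. The controls lay close together and every knockdown library was higher (log2 fold change 0.48, standard error 0.061, limma adjusted p=0.00736). TNFAIP3 had 51.3, 54.8 and 82.4 in the controls and 29.0, 29.9 and 31.8 in the knockdown. The groups did not overlap (log2 fold change -1.001, standard error 0.232, limma adjusted p=0.0447). Without any 1 of the 6 libraries the TNFAIP3 call was lost: the adjusted p was 0.0816, 0.0869 and 0.111 without shControl replicate 1, 2 or 3, and 0.126, 0.0987 and 0.0797 without GALNT7 KD replicate 1, 2 or 3. AL357060.1, the antisense gene, had a mean of 3.48 in these cells.

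NFKB1 had 553, 644 and 757 in shControl cells and 393, 500 and 508 in GALNT7 KD cells. The knockdown libraries were all lower, but the log2 fold change of -0.48 (95% interval -0.84 to -0.11) did not pass the test (limma adjusted p=0.104), and DESeq2 on the recovered reads gave an adjusted p of 0.0412, the lowest of 17 alternatives, which reached up to 0.25. NFKBIZ had 315, 161 and 344 in the controls and 158, 122 and 189 in the knockdown, with shControl replicate 2 among the knockdown values. Its log2 fold change was -0.75 (95% interval -1.50 to -0.01, limma adjusted p=0.188), and -1.10 with an adjusted p of 0.0459 without shControl replicate 2, in a range of 0.0459 to 0.402 over the alternatives.

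RELA had 1604, 1156 and 1717 in the controls and 882, 1438 and 1409 in the knockdown, and NFKBIA had 1712, 1263 and 1469 and 1649, 1377 and 1460. Both genes overlapped between the groups, with log2 fold changes of -0.28 (95% interval -0.82 to 0.27) and 0.02 (95% interval -0.28 to 0.32). RELB was at 35.0 ± 6.93 and 34.6 ± 16.8, and TRAF1 at 66.9 ± 5.90 and 82.3 ± 20.5 (SD, n=3). TNFAIP2 was at 245 ± 43.1 and 292 ± 50.8 (SD, n=3), with a log2 fold change of 0.26 (95% interval -0.17 to 0.68). BIRC3 rested on 4 to 19 reads per library in CWR22Rv1 cells, and with a 95% interval of -1.62 to 1.32 no difference was detectable at this depth.

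Per kilobase of exon, NFKBIA (624) led in shControl cells, followed by RELA (273), NFKB2 (214), NFKB1 (104), TNFAIP2 (48.7), NFKBIZ (46.3), TNFAIP3 (12.4), RELB (11.5), TRAF1 (10.4) and BIRC3 (1.17). RELA overlapped NFKB2 in this order, TNFAIP2 overlapped NFKBIZ, and TNFAIP3, RELB and TRAF1 overlapped one another. In GALNT7 KD cells NFKB2 (298) stood above RELA (227), and the libraries of these genes did not overlap there. TNFAIP3 (5.98) lay below TRAF1 (12.8) and RELB (11.4) in the knockdown. The ratio of NFKB2 to NFKB1 per kb was 1.77 to 2.41 in the control libraries and 3.59 to 4.93 in the knockdown libraries.

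The make-up of the subunit transcripts, taken per kb over NFKB1, NFKB2, RELA, RELB and REL, was computed in each library, as a description without a test. NFKB2 made up 30.7% to 36.7% of them in shControl libraries and 41.9% to 53.3% in GALNT7 KD libraries. In DU145 cells it made up 35.5% to 36.8% in the OE control and 28.6% to 30.3% with GALNT7 OE. The NFKB1 share moved the other way, from a mean of 16.2% to 11.4% in the knockdown and from 16.0% to 22.3% in the overexpression. RELB had a mean share of 1.80% and 1.73% in CWR22Rv1 cells, and 11.7% and 7.93% in DU145 cells.

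**Figure D3:**
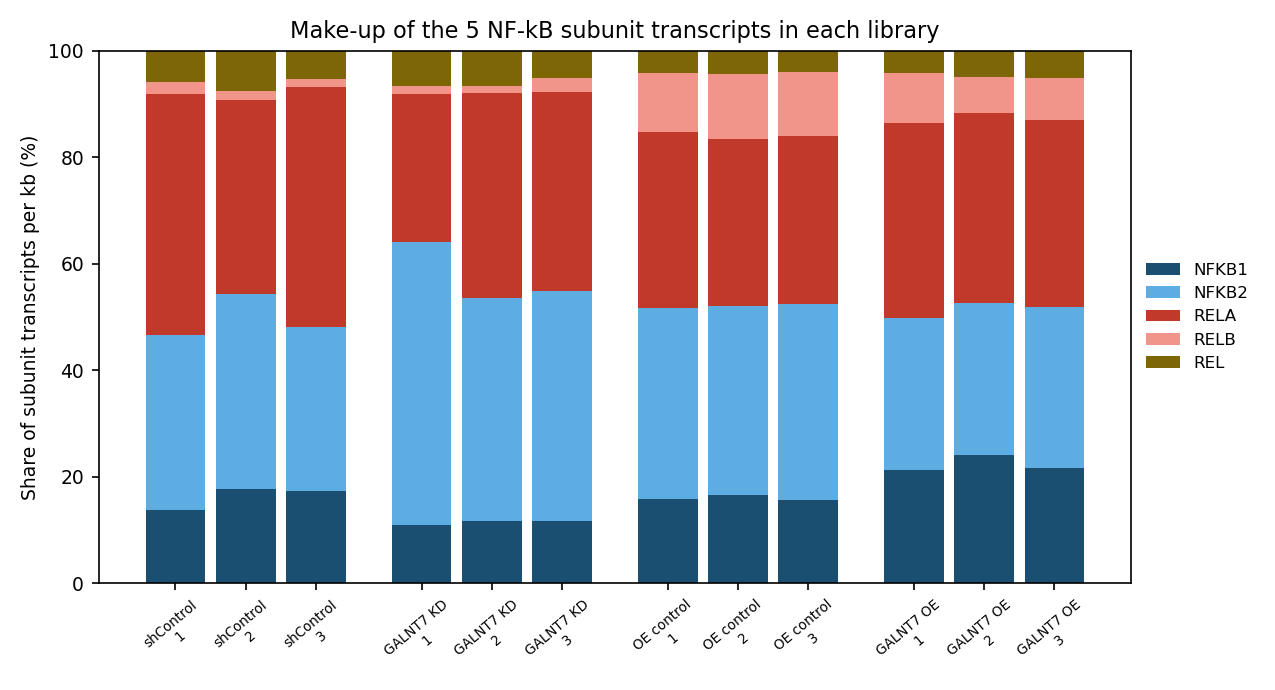
Share of the 5 subunit transcripts per kb of exon (percent, stacked to 100) in each of the 12 libraries. The NFKB2 share is 41.9% to 53.3% in GALNT7 KD and 30.7% to 36.7% in shControl libraries, and 28.6% to 30.3% in GALNT7 OE and 35.5% to 36.8% in OE control libraries.

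The comparisons side by side show opposite directions for NFKB2, with a log2 fold change of 0.48 in the knockdown and -0.76 in the overexpression, and the same direction for TNFAIP3, at -1.001 and -2.25. The other 8 genes were called in at most 1 comparison. Since the cell lines differ, and the tables were scaled separately, the difference between the comparisons was not tested.

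A list of 64 further pathway genes, chosen by role, was counted in the same fits. In the overexpression 58 were tested, and 21 were lower and 5 higher, where 20.5% of all genes were lower and 22.9% higher, and the median log2 fold change of the list was -0.15. In the knockdown 49 were tested, and 3 were lower and 1 higher, few enough to lie near the shares of all genes (3.79% and 5.28%), so that these counts are not a result about the list. Of the remaining subunit and IκB genes, 3 of 5 were lower in GALNT7 OE. NFKBIE, an IκB protein that binds REL dimers, had 1024, 1003 and 884 normalised counts in the OE control and 486, 475 and 477 with GALNT7 OE (log2 fold change -1.01, limma adjusted p=0.000107). BCL3, an IκB protein that acts in the nucleus, fell from 2334 ± 34.7 to 1535 ± 139 (SD, n=3, limma adjusted p=0.000732). REL, named because it was the only other call on this list, had a log2 fold change of -0.28 (limma adjusted p=0.0135, and 0.0509 without OE control replicate 2). None of the 5 passed the test in the knockdown.

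Among 12 kinases, 2 were higher and 1 was lower in GALNT7 OE, and 1 was lower in GALNT7 KD. Of all genes, 22.9% were higher and 20.5% lower in GALNT7 OE, and 5.28% and 3.79% in GALNT7 KD. The counts are thus not a result about kinases as a list. MAP3K14, the kinase that drives NFKB2 processing, had 1207, 1130 and 1189 normalised counts in the OE control and 1898, 1688 and 1785 with GALNT7 OE. In the knockdown it went the other way, with 444, 435 and 461 in shControl cells and 324, 318 and 327 in GALNT7 KD cells. The log2 fold changes were 0.61 (limma adjusted p=0.000411) and -0.47 (limma adjusted p=0.0184), each opposite to that of NFKB2. The knockdown call was lost without shControl replicate 1, 2 or 3 (adjusted p=0.0739, 0.0529 and 0.0721) and without GALNT7 KD replicate 1 (0.0699). TBK1, which activates antiviral responses, and its relative IKBKE had log2 fold changes of 0.33 (limma adjusted p=0.0378) and -0.72 (limma adjusted p=0.00412) in GALNT7 OE. For TBK1 the call was lost without OE control replicate 1 or 3 (0.107 and 0.0938), without GALNT7 OE replicate 2 or 3 (0.111 and 0.0745), and with rescaling to the 75th percentile (0.109).

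Adaptors and ubiquitin enzymes numbered 23 in the overexpression, of which 8 were lower and 3 higher (20.5% and 22.9% of all genes), and none of the 22 tested passed in the knockdown. ZC3H12A, an RNase that degrades inflammatory transcripts, had 1742, 1878 and 1897 normalised counts in the OE control and 228, 304 and 177 with GALNT7 OE. It fell 7.78-fold (log2 fold change -2.99, limma adjusted p=3.78e-05), where NFKBIZ had a log2 fold change of -2.58, and the difference between these genes was not tested. IRAK2, a kinase of interleukin 1 signalling, fell from 1100 ± 74.7 to 446 ± 23.5 (SD, n=3, limma adjusted p=4.09e-05). In contrast, IRAK4 rose from 239 ± 22.3 to 423 ± 19.2, IRAK1 from 3066 ± 162 to 4309 ± 385, and TAX1BP1, a partner of TNFAIP3, from 4539 ± 189 to 6297 ± 389 (SD, n=3). The limma adjusted p was 0.000763, 0.00237 and 0.000811 for these genes.

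Receptors were lower in 7 of 13 tested genes in GALNT7 OE, with none higher, against 20.5% lower and 22.9% higher of all genes. TNFRSF1B, the second TNF receptor, fell from 285 ± 11.0 to 90.9 ± 2.43 (limma adjusted p=4.05e-05), and TNFRSF9, a receptor of activated immune cells, from 354 ± 48.0 to 161 ± 20.7 (SD, n=3, limma adjusted p=0.000966). In GALNT7 KD, IL1R1, the signalling receptor of interleukin 1, rose from 251 ± 55.9 to 463 ± 32.3 (limma adjusted p=0.0277), and LTBR, the lymphotoxin receptor upstream of MAP3K14, fell from 3139 ± 241 to 2447 ± 26.3 (SD, n=3, limma adjusted p=0.0212). They were the only calls among 9 receptors tested there, where 5.28% of all genes were higher and 3.79% lower. These knockdown counts are not a result about receptors as a list. The IL1R1 call was lost without shControl replicate 1 or 3 (adjusted p=0.0535 and 0.0602) or GALNT7 KD replicate 1, 2 or 3 (0.0754, 0.0773 and 0.0688). The LTBR call was lost without shControl replicate 1 or 3 (0.058 and 0.0615) or GALNT7 KD replicate 1 or 2 (0.0828 and 0.0566). LTBR lies on chromosome 12, where the median over 922 genes was -0.28 on the log2 scale in the knockdown, and the part of this shift in the LTBR value was not tested. In GALNT7 OE both receptors had lower values, with log2 fold changes of -0.36 for IL1R1 (limma adjusted p=0.0255) and -0.21 for LTBR (limma adjusted p=0.0215). These calls were lost without OE control replicate 2 (0.0828 for IL1R1 and 0.0668 for LTBR) or GALNT7 OE replicate 1 (0.0673 and 0.0572). For IL1R1 the same held without OE control replicate 3 (0.0779) or GALNT7 OE replicate 3 (0.0654), and for LTBR without OE control replicate 1 (0.0748) or GALNT7 OE replicate 2 (0.0667).

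Of 10 ligands, 1 was tested in the knockdown and 5 in the overexpression. The 1 in the knockdown was lower, where 3.79% of all genes were. In the overexpression 2 were lower and 0 higher, where 20.5% and 22.9% of all genes were. With so few tested, the counts are not a result about ligands as a list. IL1A and IL36G had at most 1 read in any library. IL1B, an inflammatory cytokine, had 5, 10 and 14 reads in the OE control and 0 in every other library, where 0 reads allow up to 3, and with a mean under 5 over the 6 DU145 libraries it was not tested. TLR4, the receptor for bacterial lipopolysaccharide, had 0 reads in all 12 libraries, which allows up to 3 reads per library. TNFSF15 and TNFSF14, named because they were the only calls, had means of 14.3 and 25.1 in the OE control and 4.04 and 3.33 with GALNT7 OE (limma adjusted p=0.0311 and 0.00924). In the knockdown TNFSF15 went from 37.0 ± 4.91 to 13.6 ± 0.856 (SD, n=3, limma adjusted p=0.0167). The TNFSF15 calls were lost without shControl replicate 1, 2 or 3 (0.0654, 0.0625 and 0.0522) or GALNT7 KD replicate 1 (0.0561), and in the overexpression without OE control replicate 1 or 2 (0.0834 and 0.101) or GALNT7 OE replicate 1 or 2 (0.0767 and 0.0827). TNF was not analysed here.

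**Figure D4:**
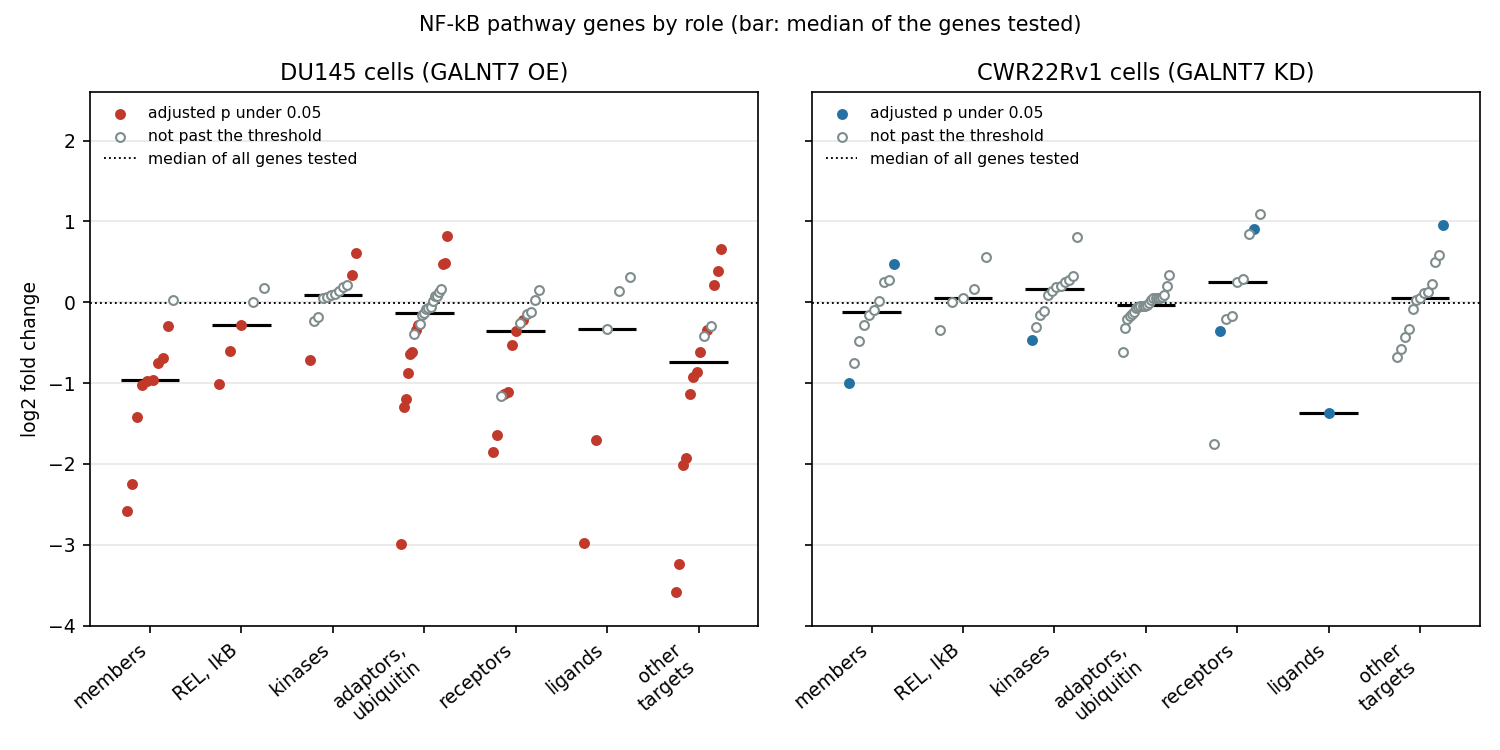
Log2 fold change of the genes tested in each role list, with filled points for an adjusted p under 0.05, black bars for the median of each list and a dotted line for the median of all genes tested. In DU145 cells 9 of the 10 NF-κB genes and 7 of 13 receptors are filled and below 0, and in CWR22Rv1 cells few points are filled in any list.

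The summed markers of leukocytes in DU145 cells, and of fibroblasts in both lines, lay apart between the groups. The summed normalised count of 6 leukocyte markers was 2653 to 2850 in the OE control and 1023 to 1153 in GALNT7 OE, almost all of it CD68, which had means of 2675 and 1035. The pan-leukocyte gene PTPRC had means of 0.336 and 0.699 there, and the T cell gene CD3E was at 0 in all 12 libraries. The sum of 5 fibroblast markers was 303 to 430 in the OE control and 66.5 to 163 in GALNT7 OE. Most of it there was COL1A1, with means of 334 and 90.6, while LUM was at 0. In CWR22Rv1 cells this sum was 271 to 346 in shControl and 705 to 786 in GALNT7 KD, where LUM had means of 225 and 626. The leukocyte sum was 122.0 to 137.2 in shControl and 136.8 to 197.2 in GALNT7 KD, so these groups overlapped. The sum of 4 endothelial markers overlapped in both lines, at 32.7 to 36.3 in the OE control and 14.0 to 55.6 in GALNT7 OE. It was 0 to 2.75 in shControl and 0 to 3.87 in GALNT7 KD. The part of these genes in the changes of the 10 NF-κB genes was not tested.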

How the data were processed

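The authors deposited a signal per gene and library: read counts divided by a size factor, for 59424 Ensembl genes, in 1 table per cell line. The submitters' processing notes name hg38, FastQC, Salmon, DESeq2 and R 3.5.3, with no roles. Dividing by the value of 1 read gave whole reads (tolerance 0.01) for 100% of values, 18364512 to 24356910 reads per library. Names, positions and exon lengths came from GENCODE 29 (GRCh38), which holds 94.4% of the identifiers.

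Each cell line was tested by limma 3.58.1 (lmFit, eBayes with trend, R 4.3.3) after a log2 transform with a pseudocount of 1. Genes needed a mean normalised count of 5 or more in the 6 libraries, and p-values were adjusted over all genes by Benjamini-Hochberg. Fold changes on this scale understate the change of low genes. Folds given as such are ratios of group means. edgeR 4.0.16 and DESeq2 1.42.0 on the recovered reads were alternatives, as were other pseudocounts, filters, scalings and omitted replicates. Replicate pairs differed by more than sampling noise.

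The members and lists were chosen with earlier results of these data known. Named were GALNT7, the 10 genes and, per list, comparison and direction, up to 2 genes with the largest change past the threshold, a mean of at least 50 and no overlap. Genes named beyond this rule (REL, TAX1BP1, TNFSF14, TNFSF15, CFLAR) were chosen after their values were seen. The same holds for IL1R1 and LTBR in the overexpression.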

Additional observations from a re-analysis of the deposited data

How the results depend on the processing

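Under the 17 alternatives, members lower in GALNT7 OE numbered 8 to 9 and members higher 0, and 1 member (NFKB2) was higher in GALNT7 KD throughout. The knockdown counts were less stable. Members lower in the knockdown, 1 as reported, were 0 with no filter on low values, quantile normalisation, eBayes without trend, the replicate block or an adjusted p of 0.01, 2 with DESeq2, and 0 to 1 with a replicate left out. Pathway genes lower in the knockdown, 3 as reported, were 0 with the replicate block or an adjusted p of 0.01, and 0 to 3 with a replicate left out. Pathway genes higher there, 1 as reported, were 0 with eBayes without trend, the replicate block or an adjusted p of 0.01, and 0 to 1 with a replicate left out. Other targets higher there, 1 as reported, were 2 with a mean of at least 20 or DESeq2, 0 at an adjusted p of 0.01, and 0 to 2 with a replicate left out. Moderation (eBayes) without trend also ended the calls of TNFAIP3, IL1R1 and LTBR in the knockdown and of RELA, LTBR, TBK1, GADD45B and CFLAR in the overexpression (adjusted p from 0.0515 to 0.0737), and quantile normalisation those of TBK1 (0.112), GADD45B (0.0866), CFLAR (0.102) and TNFSF15 (0.0749) there. DESeq2 did not call TNFSF15 in the overexpression (0.0706). Direction reversed only in log2 fold changes that did not pass the test: NFKBIA in the knockdown (-0.0007 at the 75th percentile, -0.004 with quantile normalisation, -0.0883 to 0.1311 with a replicate left out), BIRC3 in the knockdown (0.0059 with quantile normalisation, -0.5483 to 0.431 with a replicate left out), RELB in the knockdown (-0.4601 to 0.103 with a replicate left out) and NFKB1 in the overexpression (-0.0712 at the 75th percentile, -0.0749 with quantile normalisation, -0.0041 to 0.0792 with a replicate left out). The cause of these changes was not tested.

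Same-numbered replicates did not deviate together (correlations of -0.011, 0.075 and -0.0057 in CWR22Rv1 and 0.043, 0.043 and 0.016 in DU145 cells). With 3 libraries per group, such values cannot exclude that samples of the same number were handled together. With the number as a block, 594 genes were higher and 408 lower in the knockdown, against 945 and 678, and 3913 and 3492 in the overexpression, against 4290 and 3842. The replicate block ended the calls of TNFAIP3 (0.0728), MAP3K14 (0.0539), LTBR (0.0501), IL1R1 (0.0566) and TNFSF15 (0.0561) in the knockdown and of LTBR (0.0608) and TNFSF15 (0.0676) in the overexpression. DESeq2 called 1481 higher and 1161 lower in the knockdown, an adjusted p of 0.01 left 240 and 152 there, and eBayes without trend 579 and 417. Low counts limit BIRC3, RELB and TNFAIP3 in CWR22Rv1 cells.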

Other observations

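A list of 17 other target genes of NF-κB, outside the pathway lists, was described in the same fits. In GALNT7 OE, 9 of 14 tested were lower and 3 higher, where 20.5% of all genes were lower and 22.9% higher, with a median log2 fold change of -0.74. SOD2, a mitochondrial superoxide dismutase, fell from 41490 ± 619 to 3469 ± 48.1 normalised counts (SD, n=3), which is 11.96-fold (log2 fold change -3.58, limma adjusted p=2.34e-08). BCL2A1, a survival protein of the BCL2 family, fell from 394 ± 11.6 to 41.6 ± 9.77 (SD, n=3, limma adjusted p=2.93e-05). Both fell more than NFKBIZ on the log2 scale, a difference that was not tested.

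The 3 higher genes were CD83, GADD45B and CFLAR. CD83, a surface protein of activated immune cells, rose from 194 ± 18.8 to 308 ± 25.2 (SD, n=3, limma adjusted p=0.00382). It was also higher in GALNT7 KD, from 75.3 ± 9.51 to 146 ± 9.41 (SD, n=3, limma adjusted p=0.0132). That was the only call among 13 targets tested there, where 5.28% of all genes were higher and 3.79% lower. The knockdown count is not a result about the list. The CD83 call in GALNT7 KD was lost without shControl replicate 1 (0.0551) or GALNT7 KD replicate 1 (0.0614). GADD45B and CFLAR, both linked to survival signalling, had log2 fold changes of 0.38 (limma adjusted p=0.0264) and 0.21 (limma adjusted p=0.0201). The GADD45B call was lost without OE control replicate 1, 2 or 3 (0.0506, 0.0642 and 0.0803), without GALNT7 OE replicate 2 (0.0697) and with rescaling to the 75th percentile (0.0781), and that of CFLAR without OE control replicate 1 or 2 (0.0562 and 0.0559), without GALNT7 OE replicate 3 (0.0596) and with that rescaling (0.154).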
